A study of Mus musculus with 24 samples.

Results

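Small RNA from enriched pachytene/diplotene spermatocytes of Ago413-/- mice was compared with that of Ago413+/+ mice, in 4 libraries of each genotype. These are 8 of the 24 libraries of the series, chosen by their labelled cell type and genotype, and the other 16 hold Ago413+/- spermatocytes and round spermatids of the same 3 genotypes. Of the 1978 mature mouse miRNAs counted, the 382 counted 10 times or more in 3 or more of these 8 libraries were tested, and they held 99.79% of the counts of those libraries. Another 982 had no count in any of the 8.

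All groups were male C57BL/6J mice of 10 to 15 weeks. In the Ago413 line, Ago1 is deleted and Ago3 and Ago4 are partly deleted on chromosome 4, Ago2 is intact, and the allele was made in 129 ES cells, passed through a mixed cross with a Sox2-cre strain and was then backcrossed. The Ago413+/- mice carry 1 copy of this allele and the Ago413+/+ mice none. Testes of 2 to 5 mice went into a cell preparation, and the fractions pooled for a library held above 70% of the wanted cell type, so other cells of the testis remain in them. The labels number the libraries 1 to 4 within a genotype without saying that each came from other animals, so the p-values measure the spread between these libraries, which may be technical in part.

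A miRNA is cut from a hairpin RNA whose arms can each give a mature strand, named -5p or -3p. The mature strand is held by an Argonaute protein, which it guides to transcripts through its seed, bases 2 to 8, and strands without a place in an Argonaute are generally short-lived. Meiotic male germ cells are known for abundant miR-34 and miR-449 miRNAs and for a large miRNA cluster near Fmr1 on chromosome X that is expressed mainly in the testis.

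A miRNA is called changed here when its Benjamini-Hochberg adjusted p by the quasi-likelihood test of edgeR is below 0.05 and its log2 fold change is 1 or more in size, which is a doubling or more in either direction. In Ago413-/- spermatocytes 18 of the 382 miRNAs (4.71%) were changed. The 13 lower ones (3.4% of all tested) were miR-409-5p, miR-409-3p, miR-541-5p, miR-337-5p, miR-532-5p, miR-532-3p, miR-743b-5p, miR-497a-5p, miR-195a-5p, miR-935, miR-139-5p, miR-466g and miR-30e-3p. The 5 higher ones (1.31%) were miR-7210-5p, miR-468-5p, miR-5099, miR-3963 and miR-7230-3p. The count was 11 without Ago413+/+ replicate 1 or replicate 2 and 9 without replicate 3, and without Ago413-/- replicate 1 it was 22, with 12 higher and 10 lower. With a trend on GC content removed, 25 miRNAs were changed, 11 higher and 14 lower, and DESeq2 in place of edgeR called 58, 21 higher and 37 lower, all 18 among them. RefSeq (GRCm38.p6) gives a mature sequence for 313 of the 382 miRNAs (81.9%) and for 15 of the 18. The lower ones are shown first, 5′ to 3′ with the seed in capitals, so that shared and unshared seeds can be seen.

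miR-409-5p: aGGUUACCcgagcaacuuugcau

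miR-409-3p: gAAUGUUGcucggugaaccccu

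miR-541-5p: aAGGGAUUcugauguuggucacacu

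miR-337-5p: cGGCGUCAugcaggaguugauu

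miR-497a-5p: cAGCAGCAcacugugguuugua

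miR-195a-5p: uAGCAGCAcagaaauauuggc

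miR-532-3p: cCUCCCACacccaaggcuugca

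miR-743b-5p: uGUUCAGAcugguguccauca

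miR-935: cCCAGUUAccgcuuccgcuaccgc

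miR-139-5p: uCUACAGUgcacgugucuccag

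miR-30e-3p: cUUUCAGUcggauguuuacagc

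The higher ones follow in the same form.

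miR-7210-5p: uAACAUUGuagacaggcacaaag

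miR-468-5p: gACUGAUGuacugauaagaaacucagu

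miR-3963: uGUAUCCCacuucugacac

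miR-7230-3p: uUGAGUUGagacugucaguaggu

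Among these 15, only miR-497a-5p and miR-195a-5p share a seed (AGCAGCA). miR-532-5p, miR-466g and miR-5099 are named only.

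Before the values, the libraries themselves differ in depth. The totals ran from 311610 to 721314 counts in Ago413+/+ and from 182904 to 369491 in Ago413-/-, with 638 to 786 and 407 to 656 miRNAs detected. Ago413-/- replicate 2 stood apart. It was the smallest library, with 407 miRNAs detected, and its let-7c-5p (60552 CPM, which are counts scaled to a common library size with TMM factors) and miR-320-3p (4389.8 CPM) lay far above the 8437 to 12206 CPM and 374 to 495 CPM of the other 3 Ago413-/- libraries. Without it, 22 miRNAs were changed, 17 of the 18 among them. For counting error alone, a count of 0 leaves room for 3 counts, which is 21.2 CPM in that library and 3.45 CPM in Ago413+/+ replicate 3. The counts cover miRNAs only, so whether the 3 deleted Argonaute genes are silent was not checked here, and in bulk libraries fewer cells of a type and less RNA per cell cannot be told apart.

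**Figure D1:**
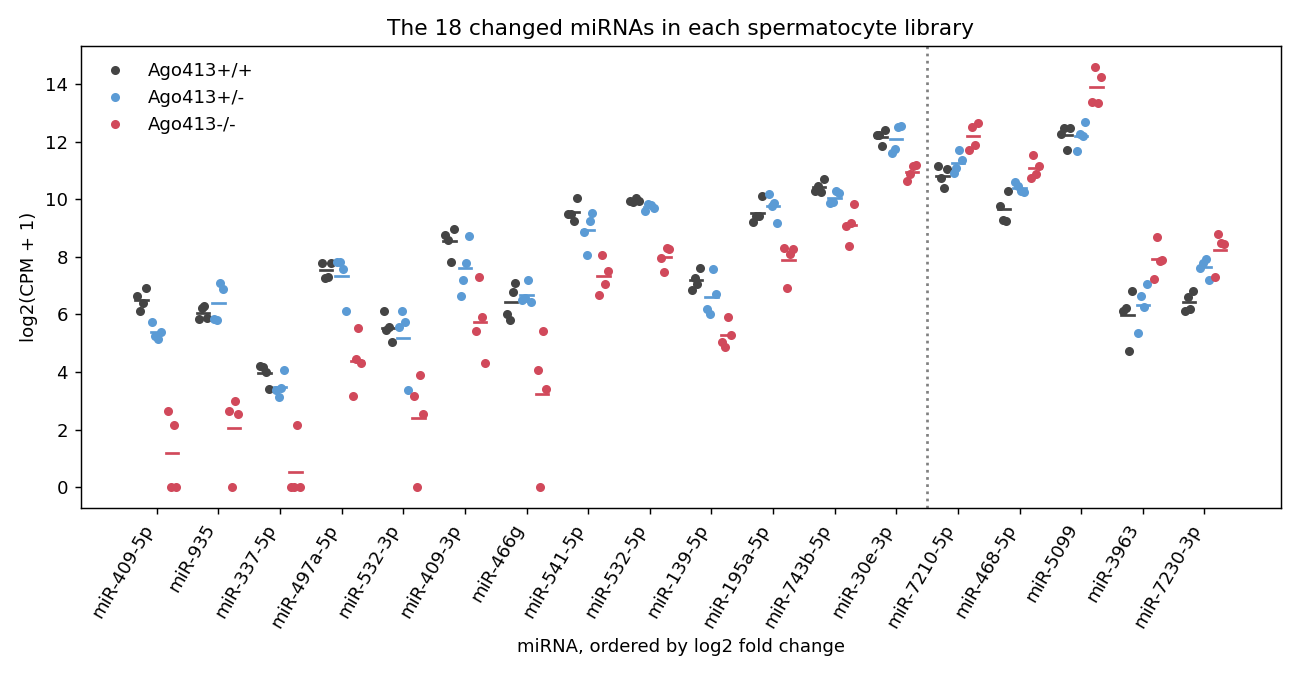
Each point is a library, on log2(CPM + 1), for the 18 changed miRNAs in Ago413+/+, Ago413+/- and Ago413-/- spermatocytes (n = 4 each), and bars are the means of the log values. The dotted line parts the 13 lower from the 5 higher miRNAs, and the Ago413+/+ and Ago413-/- libraries do not overlap for any of the 18.

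The Dlk1-Dio3 region of chromosome 12 is an imprinted domain whose miRNAs are expressed from the maternal chromosome. Of its 10 miRNAs tested, 4 fell and none rose past the thresholds, with a median log2 fold change of -1.29 beside 0.01 over all 382. miR-409-5p and miR-409-3p come from Mir409 (chr12:109743158-109743236), in an intron of the long noncoding RNA gene Mirg. miR-541-5p comes from Mir541 (chr12:109742409-109742498), 659 bases upstream in the same host, and miR-337-5p from Mir337 (chr12:109585789-109585885).

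miR-409-5p had 98.0, 67.9, 82.9 and 121 CPM in Ago413+/+ replicates 1 to 4 and 5.29, 0, 3.51 and 0 CPM in Ago413-/-. The Ago413-/- libraries held 2, 0, 1 and 0 reads of it. The fitted log2 fold change of -4.88 ± 0.58 (SE, edgeR adjusted p = 0.000161) therefore rests on very few reads. With a floor of 3 counts put in each Ago413-/- library, the mean was at least 6.85-fold lower. The other arm, miR-409-3p, had 437, 382, 226 and 499 CPM in Ago413+/+ and 42.4, 156, 59.7 and 19.2 CPM in Ago413-/- (log2 fold change -2.54 ± 0.58, adjusted p = 0.0199, edgeR). Both arms were lower in every Ago413-/- library, and the 5p arm was the rarer of them in Ago413+/+.

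miR-541-5p had 719.9, 709.7, 608 and 1055 CPM in Ago413+/+ against 101, 269, 133 and 182.1 CPM in Ago413-/-, where each library held 38 reads, and fell by 2.19 ± 0.41 on the log2 scale (adjusted p = 0.00557, edgeR). miR-337-5p was near the limit of detection, with 17.7, 17.3, 15.0 and 9.59 CPM in Ago413+/+ and reads in only 1 Ago413-/- library (3.51 CPM), which puts the mean at least 1.10-fold lower (edgeR adjusted p = 0.0199). The summed level of the 10 miRNAs was 1258 to 1832 CPM in Ago413+/+ and 365 to 726 CPM in Ago413-/-, without overlap. Members of the same domain did not all follow. miR-369-5p had a log2 fold change of -1.57 (adjusted p = 0.0915), miR-127-3p of -0.17 (adjusted p = 0.848) and miR-379-5p of 1.12 (adjusted p = 0.177), none of which passed edgeR's test.

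Chromosome X carried 3 of the lower miRNAs and none of the higher ones called by edgeR. By that test, 3 of the 60 X-linked miRNAs tested (5%) and 15 of the 317 autosomal ones (4.73%) were changed, both near the 4.71% of all. miR-532-5p and miR-532-3p come from Mir532 (chrX:7248402-7248497, minus strand), 1 of the hairpins in an intron of Clcn5, a chloride/proton exchanger gene. miR-532-5p had the smallest standard error of the 18, with 975, 947, 1056 and 978 CPM in Ago413+/+ and 249, 177, 316 and 311 CPM in Ago413-/-, a fall by 1.90 ± 0.30 on the log2 scale (adjusted p = 0.00126, edgeR). The rarer arm miR-532-3p had 69.1, 42.6, 46.1 and 32.0 CPM against 7.94, 0, 14.0 and 4.79 CPM (log2 fold change -2.61 ± 0.66, adjusted p = 0.0315, edgeR). All 6 miRNAs tested from the Clcn5 intron had a log2 fold change below 0, with a median of -1.36, and their summed level was 1464 to 1673 CPM in Ago413+/+ and 382 to 607 CPM in Ago413-/-. The other 4 (miR-362-3p, miR-501-3p, miR-362-5p and miR-500-3p) lay between -1.52 and -0.37 and did not pass edgeR's test. DESeq2 called miR-501-3p among them (-1.23).

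miR-743b-5p, from Mir743b (chrX:66777256-66777332, minus strand) in the testis cluster near Fmr1, had 1244, 1406, 1223.9 and 1656 CPM in Ago413+/+ and 540.02, 332, 583 and 910.3 CPM in Ago413-/-. It fell by 1.22 ± 0.33 on the log2 scale (adjusted p = 0.0445, edgeR), the weakest call of the 18. By edgeR it was the 1 changed miRNA of the 34 tested from this cluster, which had a median log2 fold change of -0.43, 11 members above 0 and 23 below. In this cluster DESeq2 also called miR-470-5p higher (1.58) and miR-470-3p (-1.48), miR-471-5p (-1.26), miR-742-5p (-2.22), miR-883b-3p (-1.46) and miR-883b-5p (-1.20) lower. The abundant members lay on both sides of 0. miR-470-5p had a log2 fold change of 1.60 (adjusted p = 0.0621) and miR-881-3p, the most abundant miRNA of Ago413+/+ spermatocytes at 84760.4 ± 16122 CPM (SD, n = 4), of 0.35 (adjusted p = 0.424), while miR-883a-3p had -0.97 and miR-743b-3p -0.77, and none of these 4 passed edgeR's test. The summed level of the cluster was 237332 to 307192 CPM in Ago413+/+ and 274755 to 439012 CPM in Ago413-/-, which overlap. The mean sum was higher in Ago413-/- while the median log2 fold change was below 0. After TMM scaling, all 382 miRNAs tested summed to 828541 to 994052 CPM in Ago413+/+ and 976039 to 1289693 CPM in Ago413-/-. The higher cluster sum therefore cannot be read as a higher share.

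Over all 60 X-linked miRNAs tested, the median log2 fold change was -0.31 beside 0.08 over the 317 autosomal ones, a difference of -0.39. For each library, deviations were taken from the mean of the Ago413+/+ libraries, which centres that genotype by construction. The median X-linked deviation minus the median autosomal one ranged from -0.15 to 0.17 on the log2 scale in Ago413+/+. It ranged from -0.23 to 0.16 in Ago413+/- and from -0.56 to -0.12 in Ago413-/-. Ago413+/+ and Ago413-/- overlapped through Ago413-/- replicate 2, at -0.12. The 26 X-linked miRNAs outside the testis cluster had a median of -0.28. Without Ago413-/- replicate 4 the difference was -0.24. The X-linked share of all counts was 27.2% to 32.6% in Ago413+/+ and 28.4% to 34.3% in Ago413-/-.

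Of the remaining lower miRNAs, miR-497a-5p and miR-195a-5p are neighbours, from Mir497 (chr11:70234717-70234800) and Mir195a (chr11:70235042-70235135), 241 bases apart. Both belong to the miR-15/16 family, which is known for repressing cell cycle genes. miR-497a-5p had 219, 153, 155 and 221 CPM in Ago413+/+ and 7.94, 21.2, 45.6 and 19.2 CPM in Ago413-/- (log2 fold change -2.98 ± 0.52, adjusted p = 0.00315, edgeR). miR-195a-5p had 596, 678, 678 and 1096 CPM against 312, 120.2, 274 and 311 CPM (log2 fold change -1.57 ± 0.37, adjusted p = 0.0218, edgeR). In spermatocytes the opposite arm of its hairpin was not lower with it, since miR-195a-3p had a log2 fold change of 0.64 (adjusted p = 0.359, edgeR). In round spermatids, however, miR-195a-3p was lower too (log2 fold change -1.12 ± 0.30, adjusted p = 0.0142, edgeR).

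These 2 were changed among the 6 miRNAs tested that hold the seed AGCAGCA. The abundant miR-16-5p, which differs from miR-195a-5p at 3 positions, had a log2 fold change of 0.10 and miR-15b-5p of -0.41, and neither passed the test. With the 10 miRNAs of this seed summed in each library, the log2 fold change was -0.24 ± 0.37 (adjusted p = 0.703, edgeR).

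miR-935 comes from a hairpin in an exon of Cacng8, a calcium channel regulatory subunit gene (chr7:3415066-3415156). It had 56.2, 74.6, 77.1 and 57.5 CPM in Ago413+/+ and 5.29, 0, 7.02 and 4.79 CPM in Ago413-/-, where no library held more than 2 reads, so the mean was at least 4.91-fold lower (edgeR adjusted p = 0.00126). miR-139-5p, from Mir139 in an intron of the phosphodiesterase gene Pde2a (chr7:101475376-101475443), had 116, 151.8, 131 and 194.98 CPM against 31.8, 28.3, 59.7 and 38.3 CPM (log2 fold change -1.88 ± 0.43, adjusted p = 0.0199, edgeR). miR-466g, of the large miRNA cluster in an intron of the imprinted gene Sfmbt2 on chromosome 2, had 64.3, 54.6, 109 and 134 CPM against 15.9, 0, 42.1 and 9.58 CPM (log2 fold change -2.25 ± 0.59, adjusted p = 0.0349, edgeR). By edgeR it was the 1 changed miRNA of the 32 tested from that cluster, whose median was -0.39 with 24 members below 0. DESeq2 also called miR-297a-3p, miR-297b-3p, miR-297c-3p, miR-669a-5p, miR-669a-3p and miR-669p-5p, all lower, at -1.62 to -1.34. Many members of this cluster have near-identical copies, and miR-297b-3p and miR-297c-3p held the same counts in all 12 spermatocyte libraries, so single members there are uncertain.

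miR-30e-3p was the most abundant of the lower miRNAs. It comes from Mir30e (chr4:120772606-120772697, minus strand) in an intron of Nfyc, which encodes a subunit of the CCAAT-binding factor. It had 4766, 4767, 3709.6 and 5357 CPM in Ago413+/+ and 1594, 1894, 2249 and 2304 CPM in Ago413-/- (log2 fold change -1.21 ± 0.30, adjusted p = 0.0298, edgeR). miR-30a-3p, which shares its seed and differs from it at 1 position, had a log2 fold change of -0.25 (adjusted p = 0.664). Of the 11 miR-30 miRNAs tested, 10 had a log2 fold change below 0, with a median of -0.52, and miR-30d-5p (16990.2 CPM in Ago413+/+) came nearest to a call at -0.85 (adjusted p = 0.0946).

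The 5 higher miRNAs came from 5 chromosomes, and those with a sequence shared no seed. The seed of miR-5099 is not given here. miR-5099, from chr12:36816205-36816278, was the most abundant changed miRNA, with 4916, 5739.9, 3334 and 5715 CPM in Ago413+/+ and 10570.1, 24642, 10293 and 19346 CPM in Ago413-/-. Its log2 fold change was 1.72 ± 0.35 (adjusted p = 0.00993, edgeR), and its highest value was that of Ago413-/- replicate 2. miR-7210-5p, from Mir7210 (chr14:24088877-24088930), had 2251, 1695, 1338 and 2097 CPM against 3378, 5811, 3758 and 6358 CPM (log2 fold change 1.39 ± 0.32, adjusted p = 0.0199, edgeR). miR-468-5p, from Mir468 (chr6:81896599-81896676, minus strand), had 868, 627, 613 and 1256 CPM against 1721, 2955, 1895 and 2276 CPM (log2 fold change 1.40 ± 0.32, adjusted p = 0.0199, edgeR).

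The other two were rare in Ago413+/+. miR-7230-3p, from Mir7230 (chr5:113337590-113337645, minus strand), had 69.1, 95.9, 71.4 and 112 CPM in Ago413+/+ and 156, 445, 354 and 345 CPM in Ago413-/- (log2 fold change 1.90 ± 0.37, adjusted p = 0.00725, edgeR). miR-3963, from Mir3963 (chr3:151023792-151023862, minus strand), had 69.1, 74.6, 25.3 and 112 CPM against 148, 409.99, 232 and 235 CPM (log2 fold change 1.87 ± 0.48, adjusted p = 0.0336, edgeR). The summed level of the 13 lower miRNAs was 8118 to 11411 CPM in Ago413+/+ and 2912 to 4115 CPM in Ago413-/-. That of the 5 higher ones was 5381 to 9292 CPM and 15973 to 34263 CPM. These sums are TMM-scaled and are not shares of a library.

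**Figure D2:**
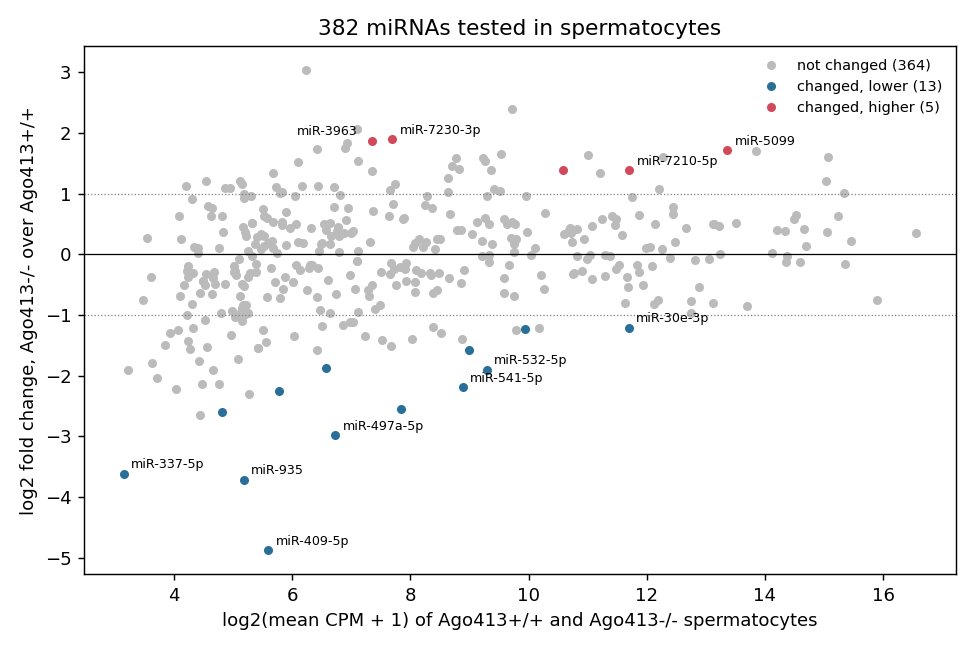
Each point is 1 of the 382 miRNAs tested, with log2(mean CPM + 1) over both genotypes on the x axis, the log2 fold change of Ago413-/- over Ago413+/+ on the y axis, and dotted lines at -1 and 1. The changed miRNAs lie below the most abundant ones, and many uncoloured points beyond the dotted lines have a large spread between libraries.

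The wider distribution held more movement than the 18 calls. All 18 were free of overlap between the genotypes, as were 81 of the 382 (21.2%), of which 52 (13.6% of all tested) were lower in Ago413-/-. An unadjusted p under 0.05 was reached by 100 miRNAs (26.2%), 47 higher and 53 lower. Log2 fold changes were above 0 for 192 of 382. None of the 25 most abundant miRNAs of Ago413+/+ was changed by edgeR, while DESeq2 called let-7a-5p (1.20) and miR-470-5p (1.58) among them. By edgeR, the log2 fold changes of the 25 ran from -0.97 (miR-883a-3p) to 1.60 (miR-470-5p).

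Several germ cell and housekeeping families held no member changed by edgeR. All 8 miRNAs of the miR-34 and miR-449 list, the hallmark of meiotic male germ cells, had a log2 fold change below 0, with a median of -0.75, and none was changed. The most abundant, miR-34c-5p, had 92986, 47206, 65969 and 98032 CPM in Ago413+/+ and 47901, 17093, 48933 and 67623 CPM in Ago413-/-, which overlap (log2 fold change -0.74, adjusted p = 0.314, edgeR). The let-7 and miR-98 list, known for promoting differentiation, had 9 of 13 members above 0 and a median of 0.51, with 0 changed. let-7a-5p did not overlap, with 17875 to 22986 CPM in Ago413+/+ and 28799 to 84579 CPM in Ago413-/- (log2 fold change 1.22, adjusted p = 0.0854, edgeR). DESeq2 called it, with a log2 fold change of 1.20. miR-92a-3p, with copies on chromosomes 14 and X, had 27409 ± 3153 CPM and 55464 ± 26944 CPM (SD, log2 fold change 1.02, adjusted p = 0.0854, edgeR). Its highest value was 94914 CPM in Ago413-/- replicate 2, against 34040 to 46783 CPM in the other Ago413-/- libraries.

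In the lists of miR-181 (6 tested), miR-10, miR-99, miR-100 and miR-125 (11), miR-148 and miR-152 (4), miR-26 (2), miR-23, miR-27 and miR-24 (6), miR-183, miR-96 and miR-182 (3), miR-200 and miR-141 (6), miR-17-92 with its paralogous clusters (15) and miR-320, miR-484 and mirtrons (3), no miRNA was changed. Their medians ran from -0.84 for miR-181 to 1.21 for the last, whose miR-320-3p had a log2 fold change of 2.39, and of 0.55 without Ago413-/- replicate 2. In these lists, where edgeR called none, DESeq2 called miR-181d-5p (log2 fold change -1.58), miR-200c-3p (1.03), miR-93-3p (-2.23) and miR-484 (-1.16).

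**Figure D3:**
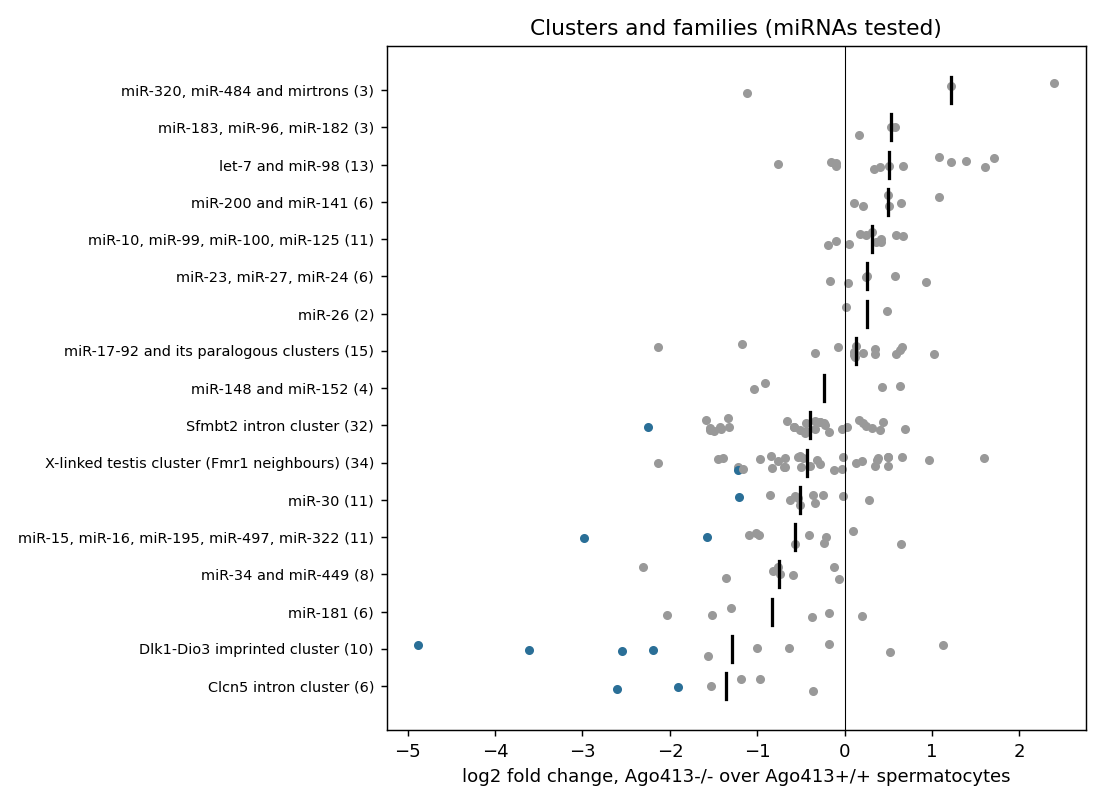
Each point is a miRNA, placed by its log2 fold change of Ago413-/- over Ago413+/+ in spermatocytes, for 17 clusters and families with the number tested in brackets, blue where changed and lower. Black bars are list medians, which are lowest for the Clcn5 intron (-1.36) and Dlk1-Dio3 (-1.29) clusters.

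Both arms were tested for 92 hairpins, which allows the strands to be set side by side. The log2 fold changes had the same sign for 64 of them, with Pearson's r = 0.481 and Spearman's rho = 0.487 across hairpins, whose arms share libraries and are not independent replicates. Mir409 and Mir532 were the 2 hairpins with both arms changed. The opposite arms of miR-468-5p, miR-7210-5p, miR-7230-3p and miR-743b-5p had log2 fold changes of 0.96, 1.17, 0.81 and -0.77, in the direction of the changed arm, and adjusted p of 0.0955, 0.0854, 0.29 and 0.0854 from edgeR. The arm rarer in Ago413+/+ was lower relative to its partner in 49 of the 92, with a median difference of -0.10 on the log2 scale.

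**Figure D4:**
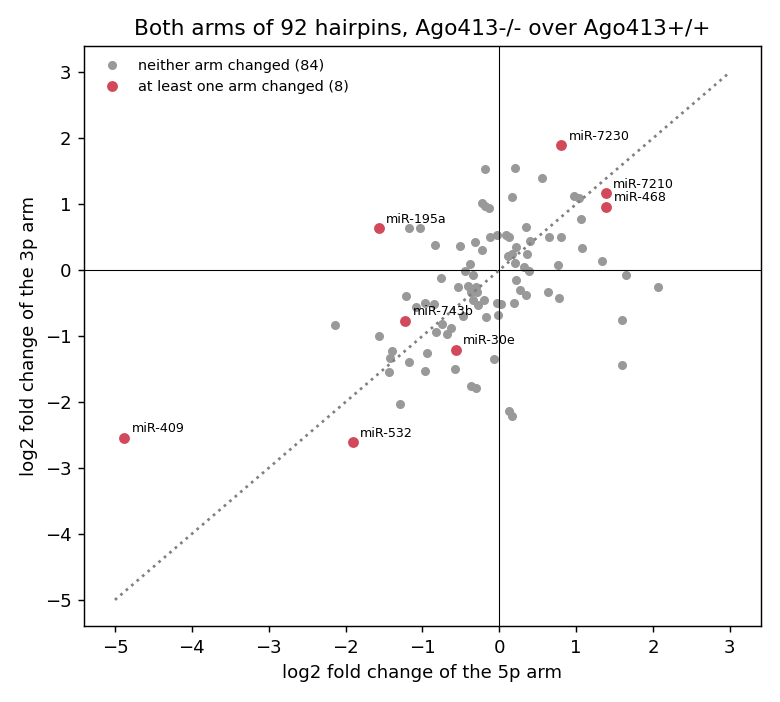
Each point is 1 of 92 hairpins, with the log2 fold change of its 5p arm on the x axis and of its 3p arm on the y axis, and the dotted line marks equal change. Red points are the 8 hairpins with at least 1 changed arm, among which Mir195a alone has arms of opposite sign in spermatocytes (-1.57 and 0.64).

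Sequence composition was described for the 313 miRNAs with a sequence. The GC content of the mature strand had a rank correlation of 0.107 with the log2 fold change. Its median was 50.0% in the lower miRNAs with a sequence, 41.3% in the higher ones and 45.5% in all. With these split by GC content into sets of like size, the 108 of lowest content held 2 higher and 0 lower calls, the 109 in the middle 2 and 6, and the 96 in the highest 0 and 5. The 15 changed miRNAs with a sequence were also called with the GC trend removed, and the other 3 have no GC content here and could not be corrected for it. When counts were summed over miRNAs with the same seed, 14 of 248 seed families were changed (5.65%), 6 higher and 8 lower, with the families of miR-3968 and miR-470-5p as the 2 that hold no changed single miRNA.

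Ago413+/- spermatocytes gave another view of the 18. Against the same Ago413+/+ libraries, none of the 382 miRNAs was changed in Ago413+/- by edgeR's test, and 11 had an unadjusted p under 0.05. All 4 Ago413+/- libraries lay above all 4 Ago413-/- libraries for 10 of the 13 lower miRNAs, the exceptions being miR-409-3p, miR-541-5p and miR-532-3p, and below them for 4 of the 5 higher ones, the exception being miR-7230-3p. The 18 were selected on these same Ago413-/- libraries, which favours such a separation in advance. Its share over all 382 miRNAs is not given here, so these counts are a description only. miR-409-5p had 52.8, 37.0, 34.9 and 40.7 CPM in Ago413+/-, between the ranges of the other genotypes (log2 fold change over Ago413+/+ of -1.16, unadjusted p = 0.0103, edgeR). miR-7230-3p had 196, 217, 244 and 147 CPM there, all above Ago413+/+ (log2 fold change 1.22, unadjusted p = 0.00425, edgeR). miR-935, in contrast, had 55.5 to 137 CPM in Ago413+/- and overlapped Ago413+/+.

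Round spermatids, the haploid cells that follow meiosis, gave measurements from other libraries of the same 3 genotypes. The labels do not say whether they came from the same mice. Except for Ago413+/+ replicate 2, each library number is next to that of the spermatocyte library of the same genotype and replicate. No fit paired libraries across the cell types, so the round spermatid values are not shown to be an independent repeat. Of the 410 miRNAs tested there between Ago413-/- and Ago413+/+, 66 were changed (16.1%). Of the 18 miRNAs changed in spermatocytes, 17 were tested in round spermatids, and 12 of those were changed. These 12 were all the lower miRNAs that could be tested. miR-409-5p had 62.3 to 121 CPM in Ago413+/+ round spermatids and 2.59 to 17.6 CPM in Ago413-/- ones (log2 fold change -3.63 ± 0.47, adjusted p = 0.000106, edgeR). miR-532-5p had 894 to 1249 CPM and 355 to 484 CPM (log2 fold change -1.37 ± 0.23, adjusted p = 0.00065, edgeR).

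None of the 5 higher miRNAs was changed in round spermatids, where their log2 fold changes were 0.13 for miR-7210-5p, 0.34 for miR-5099, 0.57 for miR-468-5p, 0.72 for miR-3963 and 0.84 for miR-7230-3p. The difference between the cell types was tested by itself, as the interaction of genotype and cell type, with all libraries treated as independent. No miRNA of the 382 reached an adjusted p under 0.05 (lowest 0.328, edgeR), 50 had an unadjusted p under 0.05, and DESeq2 called 2. By edgeR, the lowest adjusted p of the interaction among the 18 was 0.368. Among them, an unadjusted p under 0.05 was reached only by miR-7210-5p (unadjusted p = 0.00922, edgeR) and miR-5099 (unadjusted p = 0.0199, edgeR). The effect on the 5 is therefore not shown to differ between spermatocytes and round spermatids.

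**Figure D5:**
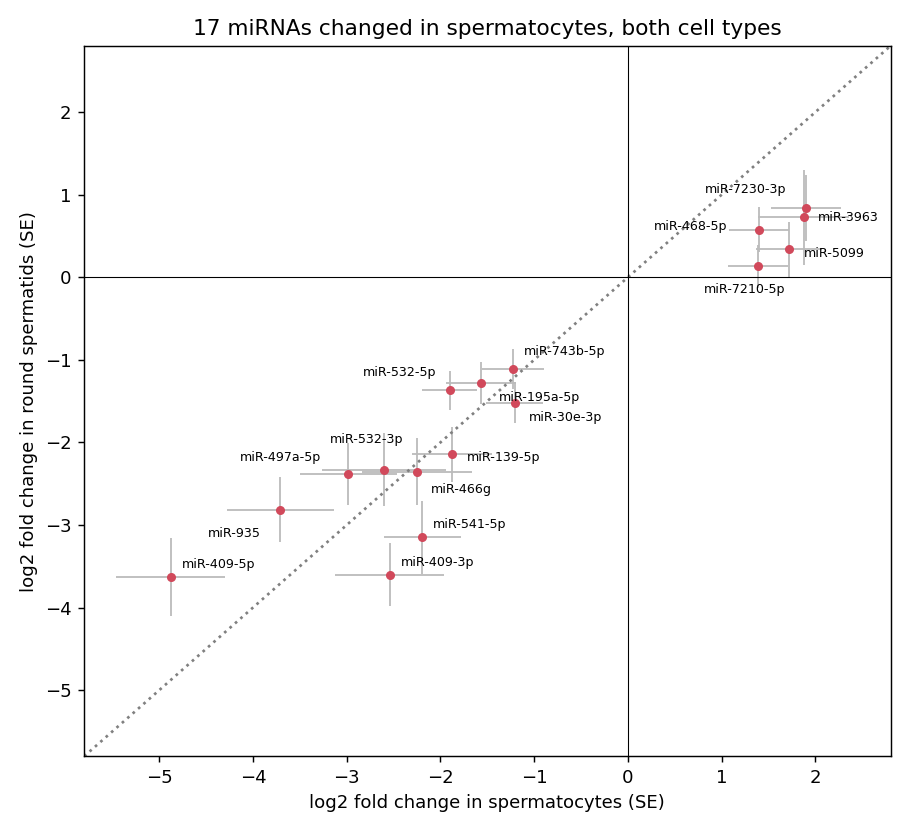
The 17 miRNAs changed in spermatocytes and tested in round spermatids, with the log2 fold change of Ago413-/- over Ago413+/+ in spermatocytes on the x axis and in round spermatids on the y axis. Bars are standard errors and the dotted line marks equal change. The 12 lower miRNAs lie between -1.11 and -3.63 in round spermatids, and the 5 higher ones between 0.13 and 0.84.

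Markers of the cell types that the fractions could hold were set beside these results. None of the 17 marker miRNAs tested, of 19 listed, was changed. The summed level of the meiotic markers miR-34b-5p, miR-34c-5p and miR-449a-5p was 56425 to 112815 CPM in Ago413+/+ and 19885 to 78508 CPM in Ago413-/-, lowest in Ago413-/- replicate 2. These miRNAs are abundant in meiotic and postmeiotic germ cells and do not tell spermatocytes from round spermatids. The tested blood markers, miR-451a and miR-486a-5p, summed to 21.3 to 2324 CPM and 488 to 2713 CPM, while miR-144-3p and miR-223-3p were too rare for the test, with 0 counts in 2 and 3 of the 8 libraries. The ranges were 387 to 1747 and 276 to 2650 CPM for the endothelial markers (2 tested), 2413 to 5078 and 2594 to 6096 CPM for the peritubular and mesenchymal ones (5), 3366 to 8587 and 2745 to 9432 CPM for the somatic gonad ones (2), and 7597 to 10014 and 4651 to 10969.9 CPM for the spermatogonial ones (3). All of these ranges overlap between the genotypes, and the part of any cell type in the 18 calls was not tested.

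The calls differ in how far they rest on single libraries. Leaving out each of the 8 libraries in turn, miR-139-5p, miR-409-5p, miR-497a-5p, miR-532-5p, miR-541-5p, miR-935, miR-5099 and miR-7230-3p were called in all 8 fits. miR-409-3p was lost only without Ago413-/- replicate 3. miR-30e-3p, miR-743b-5p and miR-3963 were called in 2 of the 8 fits, miR-466g and miR-532-3p in 3, miR-337-5p and miR-7210-5p in 4, and miR-195a-5p and miR-468-5p in 5. The library numbers of replicates 1 and 2 are lower than those of replicates 3 and 4 in both genotypes, and with a term for this split 10 miRNAs were changed, 9 of the 18 among them. When only the 8 libraries compared were fitted, without the Ago413+/- libraries that help to set the spread, 14 miRNAs were changed, 13 of the 18 among them, and miR-195a-5p, miR-337-5p, miR-466g, miR-468-5p and miR-743b-5p were not called.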

How the data were processed

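Small RNA libraries were made from 100 ng of total RNA, and per the labels the authors trimmed reads with Trim Galore. By the study's methods, the authors then ran the miRDeep2 quantifier against mouse entries of miRBase, and the deposited values are its raw counts per mature miRNA, without normalization. A read that fits several near-identical miRNAs can be counted for each, and 6 of the miRNAs tested had the same counts as another in all 12 spermatocyte libraries. None of them was changed.

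The members and miRNA lists were chosen with earlier results of these data known. Genotype, cell type and replicate were taken from the labels, and all columns were used. The main test was the quasi-likelihood test of edgeR 4.0.16 in R 4.3.3, over the 12 spermatocyte libraries in 3 genotype groups without covariates, with TMM scaling, and p-values were adjusted by Benjamini-Hochberg over all 382 miRNAs, keeping those counted 10 times or more in 3 or more of the 8 libraries compared. Round spermatids were fitted separately, and the interaction in a fit of all 24 libraries. Standard errors are the log2 fold change over the root of the F statistic. The scripts were tested on simulated data.

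Library totals of 182904 to 721314 counts set the precision, and floors of 3 counts cover counting error only, as PCR copies of 1 molecule could not be told apart without molecular identifiers. No pair of replicates was alike within sampling noise, as the chi-square statistic was 30.8 to 254.9 times its degrees of freedom. Sequences, positions and seeds are from RefSeq and hosts from the GENCODE annotation of GRCm38, 380 of the 382 miRNAs were placed on a chromosome, and 3 with copies on X and an autosome were in neither set. Named are all changed miRNAs with the opposite arm, the 10 most abundant in Ago413+/+, and for each list its changed members or, with none, its most abundant, highest and lowest member. Other miRNAs named for their list or library were chosen after their values were seen.

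The alternatives were RLE scaling, library totals, DESeq2 1.42.0, other filters, seed families, the adjusted p alone, only the 8 libraries, the replicate block, a term for replicates 1 and 2 against 3 and 4, and leaving out each library. Removal of a GC trend (loess, span 0.75, fitted to log2 CPM at prior count 5) was chosen after seeing the data, and the 69 miRNAs without a sequence got no such correction. Figures were drawn with matplotlib 3.10.9.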

Additional observations from a re-analysis of the deposited data

Results flagged for a closer look

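Among 164 groups of 4 libraries, 11 held a value set apart from the rest, where chance gives about 1 in 20, or 8.2, so the number of such groups is near that of chance. Of the 11, 5 were values of Ago413-/- replicate 2, the smallest library. In it, miR-320-3p was at 4389.8 CPM against 374 to 495 CPM in the other 3 Ago413-/- libraries, let-7c-5p at 60552 CPM against 8437 to 12206, miR-24-2-5p at 113.1 CPM against 21.1 to 34.4, and miR-465b-5p at 36998 CPM against 23660.4 to 25588. miR-191-5p was lowest there, at 28488 CPM against 54139.8 to 56008.

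Ago413-/- replicate 4 held the highest miR-881-3p, at 142385 CPM against 93951 to 100698, and the highest miR-743b-3p, at 6276 CPM against 4583 to 4836. Ago413-/- replicate 3 was the 1 library of its group with reads of miR-337-5p, at 3.51 CPM against 0. Among Ago413+/+ libraries, miR-195a-5p was highest in replicate 4, at 1096 CPM against 596 to 678, and miR-195a-3p lowest in replicate 3, at 63.3 CPM against 179 to 197. Among Ago413+/- libraries, miR-466g was highest in replicate 3, at 147 CPM against 84.6 to 94.1. What sets these values apart was not tested.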

How the results depend on the processing

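Of the 18 changed miRNAs, the direction held under all the alternatives run. RLE scaling called the same 18. The count of changed miRNAs was 58 with DESeq2 (21 higher, 37 lower), 55 of 1059 without a filter on low counts (25 higher, 30 lower), 25 with library totals (5 higher, 20 lower), 25 with the GC trend removed (11 higher), 14 with only the 8 libraries (5 higher, 9 lower) and 10 with the term for replicates 1 and 2 against 3 and 4 (3 higher, 7 lower), and the families by shared seed gave 6 higher and 8 lower. All 18 were among the calls of the first 4 of these, although 3 of them have no sequence and got no GC correction. Leaving out each library gave 9 to 22 changed, 2 to 12 higher and 7 to 17 lower, with 9 without Ago413+/+ replicate 3. Library totals moved the median over all miRNAs tested to -0.24 on the log2 scale and the GC offset to 0.109. Any call exceeds such shifts by its threshold of 1 alone. With at least 10 counts in all 8 libraries, 207 miRNAs were tested and 8 of the 18, all of them lower ones, dropped out of the test. Under that filter 19 miRNAs were changed, 5 higher and 14 lower. For the interaction of genotype and cell type, DESeq2 called 2 miRNAs and edgeR 0 under each other alternative. The difference of X-linked and autosomal medians was -0.51 to -0.24 without each library and -0.47 to -0.35 under the other alternatives.

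Same-numbered Ago413+/+ and Ago413-/- libraries had deviations that correlated at -0.173, 0.312, 0.303 and 0.369 for replicates 1 to 4. Differently numbered ones correlated at -0.378 to 0.314. The labels do not say that the numbers pair libraries, and these values do not settle it. The main fit left such a pairing out. With the replicate block, 23 miRNAs were changed (9 higher, 14 lower), 16 of the 18 among them, and miR-337-5p and miR-743b-5p were not called.

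None of the miRNAs whose direction turned was among the 18, and the cause was not tested. With at least 10 counts in all 8 libraries the value was -0.038 for miR-191-5p, -0.18 for miR-465b-5p, -0.27 for miR-26a-5p, -0.11 for miR-181b-5p and -0.13 for miR-126a-3p. With the GC trend removed the value was 0.11 for miR-465c-5p, 0.077 for miR-199a-3p and 0.032 for miR-21a-5p. With library totals in place of TMM the value was -0.14 for miR-465b-5p, -0.21 for miR-26a-5p, -0.057 for miR-181b-5p, -0.023 for miR-96-5p, -0.12 for miR-200a-5p, -0.099 for miR-126a-3p and -0.081 for miR-221-3p. Without a filter on low counts the value was -0.019 for miR-465b-5p, -0.12 for miR-26a-5p, -0.034 for miR-200a-5p and -0.034 for miR-126a-3p. With RLE scaling the value was -0.0296 for miR-26a-5p. With DESeq2 the value was -0.029 for miR-26a-5p. With the replicate block the value was -0.015 for miR-26a-5p, -0.060 for miR-96-5p, -0.13 for miR-200a-5p and -0.14 for miR-126a-3p. With only the 8 libraries the value was 0.0091 for miR-199a-3p. With the term for replicates 1 and 2 against 3 and 4 the value was 0.014 for miR-199a-3p. Without each library in turn it ran from -0.77 to 0.16 for miR-125b-2-3p, -0.10 to 0.91 for miR-125b-5p, -0.71 to 0.42 for miR-126a-3p, -0.16 to 0.39 for miR-181b-5p, -0.32 to 0.18 for miR-199a-3p and -0.92 to 0.53 for miR-200a-5p. The range was -0.85 to 0.15 for miR-202-5p, -0.23 to 0.046 for miR-21a-5p, -0.20 to 0.61 for miR-221-3p, -0.15 to 0.083 for miR-26a-5p, -0.33 to 0.040 for miR-27b-3p and -0.39 to 0.20 for miR-449a-5p, and -0.38 to 1.32 for miR-451a, -0.12 to 0.20 for miR-465b-5p, -0.22 to 0.79 for miR-486a-5p, -0.14 to 0.58 for miR-871-3p and -0.28 to 0.41 for miR-96-5p.

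Depth limits the rare miRNAs, since a count of 0 in Ago413-/- replicate 2 allows up to 21.2 CPM, above every Ago413+/+ value of miR-337-5p.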
